A study of Mus musculus with 26 samples.

Results

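PDV is a mouse squamous cell carcinoma line of the skin, and in this series 3 other carcinoma lines, MSCP1, B9ras and B9Smad, had arrays that lay nearer to it than to the other epithelial carcinoma lines. These 4 of the 26 lines were set against 4 further epithelial carcinoma lines, PDVC57, E4, SN161 and B9, which were chosen as the less basal state. The members were picked by title, from the closeness of the arrays and from high basal keratin and desmosome transcripts. Every value that compares the 8 lines was therefore used in choosing them, and the differences between the groups are given as descriptions with no test. Each line was measured on 1 array, so an SD is the spread between lines of a group and not between cultures of a line.

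All 26 lines were grown in serum and harvested in log phase, with no treatment. The labels give each of the 8 lines as derived from a squamous cell carcinoma of the skin, with the flag for spindle pathology at 0. The cell type text of B9Smad nevertheless states spindle morphology. MSCP1 carries the label of a tumour from a Spretus/CBA crossed mouse and SN161 that of a Spretus/NIH cross, while the labels state no cross for the other 6. The labels give no mouse, sex or tumour for any line, and do not say what B9ras, B9Smad and B9rassmad carry beyond their names. The series also holds 2 immortalized keratinocyte lines, C5N and NK (NK from a p53 null mouse), 1 papilloma line, P6, and 7 spindle carcinoma lines, which serve here as reference. Another 5 non-spindle carcinoma lines, B9rassmad among them, and 3 lines with incomplete or conflicting labels make up the rest.

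The epidermis is renewed from a basal layer. Basal keratinocytes build their cytoskeleton from keratin 5 and keratin 14, are anchored to the basement membrane by hemidesmosomes and to each other by desmosomes, and depend on the transcription factor p63. Keratin 8 and keratin 18 instead form the filaments of simple, single-layered epithelia and can appear in epidermal tumours. The claudins and their partners form tight junctions, which seal the space between epithelial cells.

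The arrays of the PDV-like lines lay close together. PDV and MSCP1 had 19 genes at least 4-fold apart and a correlation of 0.987 over 12641 genes, the fewest such genes of all pairs of the 26 lines. Between PDV and B9ras there were 57 such genes and between B9ras and B9Smad 148, and the 6 pairs within the group ran from 19 to 205. Within the less basal group the 6 pairs ran from 250, between SN161 and E4, to 769, between SN161 and B9. PDVC57 lay nearest to B9ras among all lines, with 249 genes at least 4-fold apart, so the less basal group held a line nearer to the PDV-like lines than to its own members. A further line, B9rassmad, which was put in neither group, had 243 such genes against B9Smad.

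**Figure D1:**
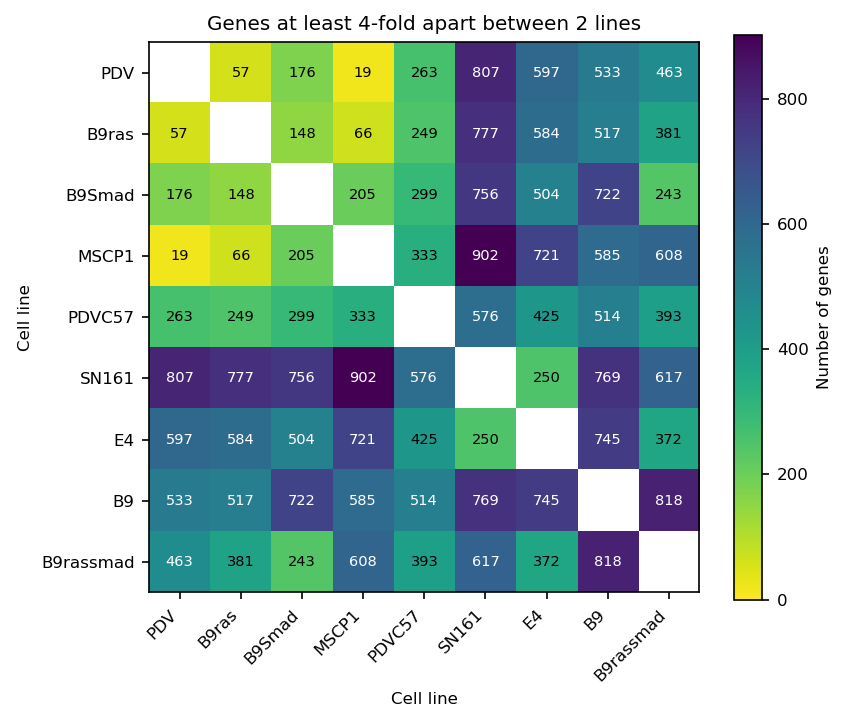
Number of genes at least 4-fold apart between each pair of the 4 PDV-like lines, the 4 less basal lines and B9rassmad, out of 12641 genes. Counts within the PDV-like block run from 19 to 205, and those between its members and PDVC57 from 249 to 333.

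Some of these distances go against the names and labels of the lines. MSCP1 lay 19 genes from PDV but 772 to 1463 genes from the other 5 lines labelled as Spretus/CBA crosses. B9 lay 517 to 818 genes from the 3 lines that carry its name, B9ras, B9Smad and B9rassmad. A check of the label of MSCP1 through probe sets that are low in all 5 other Spretus/CBA lines had no power, because 2 such probe sets were found.

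Sex-linked genes gave further values on how the lines relate. Xist, the RNA that silences an X chromosome, was at 11.71 in PDV, 11.86 in B9ras, 11.25 in B9Smad and 12.11 in MSCP1 (log2 values throughout), and at 13.34 in SN161, 5.73 in PDVC57, 13.15 in E4 and 10.73 in B9. Only B9 of the 8 lines had a raised Y-linked transcript, with Eif2s3y at 8.80 against 2.93 to 3.35 in the other 7. B9rassmad had Eif2s3y at 7.18, whereas B9ras and B9Smad had 3.17 and 3.35. Prdx4, an X-linked peroxiredoxin of the secretory pathway, lay between 3.21 and 3.74 in 8 of the 26 lines and between 9.57 and 11.74 in the other 18. The 8 lines were the 4 PDV-like lines, PDVC57, B9rassmad and the spindle lines A5 and H11; B9 was at 11.41, SN161 at 9.59 and E4 at 10.73. These values are from 1 of 4 probe sets of Prdx4, whose differences between the groups ran from -5.15 to -0.49. The groups did not overlap for 1 of the 4, which is not the one shown. Whether the other probe sets split the 26 lines in the same way was not tested. The 4 PDV-like lines are accordingly treated as possibly related cultures, which would make them fewer than 4 independent samples. PDVC57 had low Prdx4 too, though not their Xist. It lay 249 to 333 genes from the PDV-like lines, against 425 to 576 from its own group. SN161 and E4 lay 250 genes apart. The less basal lines may thus also be fewer than 4 independent samples, and the 2 groups may share related lines. What links the lines was not tested.

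Of the 12641 genes that lay above the array median on at least 2 arrays, 248 were higher in all 4 PDV-like lines than in all 4 less basal lines with means at least 2-fold apart, which is 1.96% of the genes. Another 286 genes, or 2.26%, were lower in the same sense, which makes 534 genes or 4.22% in all. Without PDVC57 the counts were 371 higher and 542 lower, and without B9 they were 362 and 431. The condition of no overlap is easier to meet with fewer lines. Counts of list members below use this rule, "counted higher" or "counted lower", and are read beside these percentages. The median difference over all genes was -0.04. A gap of at least 1 log2 unit between the groups was present for 56 genes higher and 47 genes lower in the PDV-like lines.

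The basal keratins did not separate the 2 groups, because B9 expressed them as strongly as the PDV-like lines did. Of 7 basal and wound keratins that passed the filter, 0 were counted in either direction, although the median difference of the group means was 3.44. SN161 and E4 lay below all 4 PDV-like lines in 7 of 7, PDVC57 in 6 of 7, and B9 in 0 of 7, with B9 above all of them in 2. The name "less basal" thus described SN161 and E4, fitted PDVC57 in part, and was not borne out by the keratins of B9.

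Krt5, the keratin of the basal layer, was at 13.39 in PDV, 13.28 in B9ras, 12.22 in B9Smad and 13.78 in MSCP1, and at 5.60 in SN161, 11.58 in PDVC57, 4.79 in E4 and 13.17 in B9. The means were 13.17 ± 0.67 (SD, n = 4) and 8.79 ± 4.21 (SD, n = 4), and the groups overlapped through B9 alone. On an array of a whole culture, fewer cells that express a gene and less RNA per cell cannot be told apart. Its partner Krt14 was at 14.25, 14.15, 13.75 and 14.51 in PDV, B9ras, B9Smad and MSCP1, against 7.88 in SN161, 12.13 in PDVC57, 8.77 in E4 and 14.09 in B9. Krt17, a keratin of appendages and wounds, followed the same order, with 11.86 to 13.54 in the PDV-like lines, 12.53 in B9, 10.9997 in PDVC57, 6.94 in SN161 and 5.79 in E4. The keratinocyte lines C5N and NK had Krt5 at 13.42 and 12.86, inside the range of the PDV-like lines.

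Of the 8 lines, B9 had the highest values of the hyperproliferation keratins Krt6b and Krt16. Krt6b was at 12.23 in B9, against 7.67 in PDV, 9.97 in B9ras, 5.16 in B9Smad and 10.08 in MSCP1, and at 4.32 to 5.42 in the other 3 less basal lines. Krt16 was at 12.31 in B9, 7.93 to 10.60 in the PDV-like lines and 4.84 to 5.06 in SN161, PDVC57 and E4. Both genes were higher still in the papilloma line, at 13.95 and 13.50. Krt6a, which is nearly identical in sequence to Krt6b and may share probes with it, was at 13.17 to 13.67 in the PDV-like lines and 13.60 in B9. Krt15, a marker of quiescent basal and bulge cells, reached 7.67 in B9ras and 6.80 in B9 and was at most 6.02 in the other 6 lines.

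Keratins of simple epithelia ran the other way and included B9. Krt8 was at 10.93 in PDV, 6.59 in B9ras, 5.52 in B9Smad and 8.81 in MSCP1, and at 13.07 in SN161, 13.57 in PDVC57, 13.18 in E4 and 13.37 in B9. All 4 less basal lines were high and close together, while the PDV-like lines were spread, so the fold of 40.4 between the means depends on which PDV-like line is taken. With PDV alone, the difference was -2.37 in place of -5.34. Krt18 was also counted lower, at 11.28 to 12.65 against 12.78 to 13.35, a difference of -1.24. Krt7 (4.26 to 8.63 against 5.41 to 12.80) and Krt19 (9.42 to 10.005 against 10.21 to 11.34) were lower in mean as well; Krt19 did not overlap but was under 2-fold, at -0.91. The difference of Krt7, -2.80, rested on SN161 and E4, and without them it was 0.55. In all, 2 of 4 simple keratins that passed the filter were counted lower. C5N, NK and P6 had Krt8 at 5.04, 5.03 and 5.17, below every one of the 8 carcinoma lines.

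**Figure D2:**
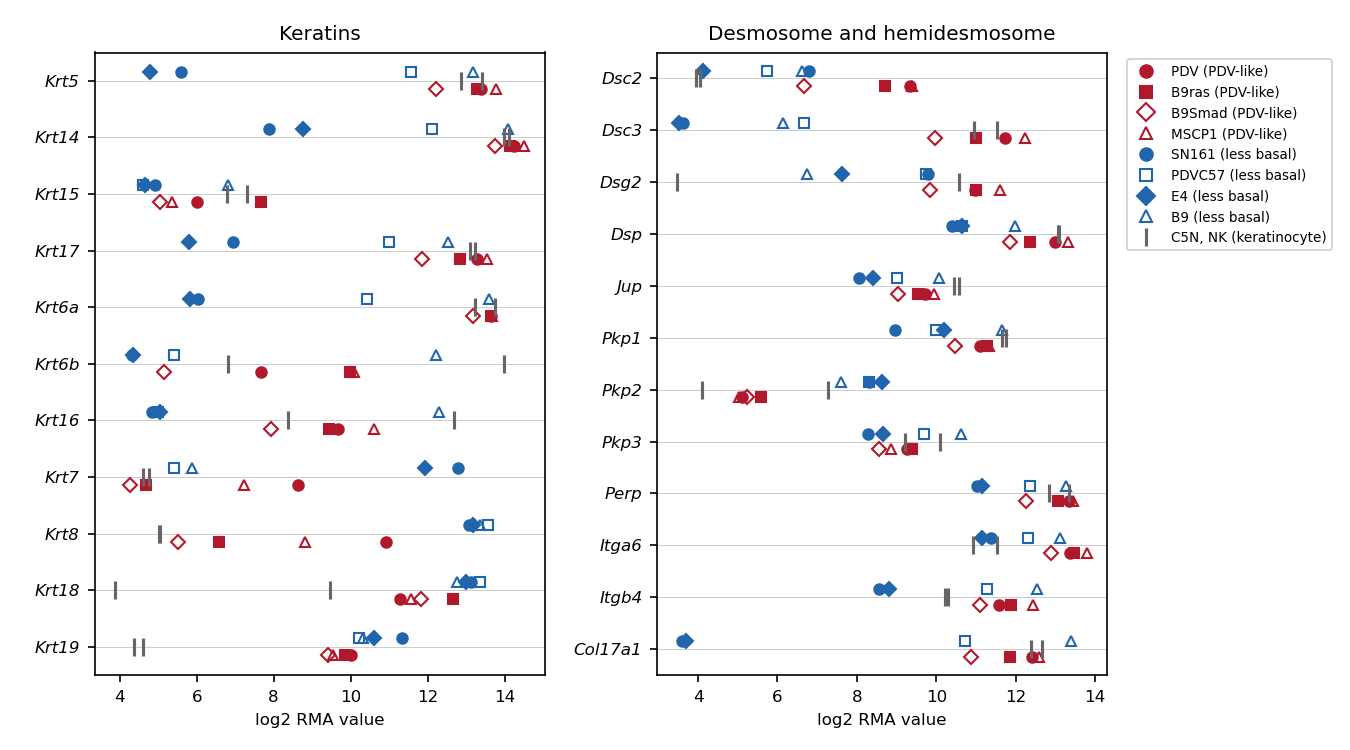
Log2 RMA values of keratins (left) and of desmosome and hemidesmosome genes (right) in the 4 PDV-like lines (red), the 4 less basal lines (blue) and the keratinocyte lines C5N and NK (grey bars); each symbol is 1 line. B9 (open blue triangle) sits with the PDV-like lines for Krt5 and Col17a1 but with the less basal lines for Krt8 and Dsc3.

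Of the desmosome genes, 3 of 11 separated the groups, 2 higher and 1 lower in the PDV-like lines. Dsc3, the desmocollin of the basal epidermis, was at 11.74 in PDV, 11.01 in B9ras, 9.96 in B9Smad and 12.22 in MSCP1, and at 3.62 in SN161, 6.67 in PDVC57, 3.52 in E4 and 6.14 in B9. The difference of the means, 6.24, corresponds to 75.8-fold, and the lowest PDV-like line lay 3.30 above the highest of the others. Dsg2, a desmoglein of simple epithelia and basal cells, was at 10.98, 11.01, 9.85 and 11.61 in PDV, B9ras, B9Smad and MSCP1, against 9.80 in SN161, 9.74 in PDVC57, 7.62 in E4 and 6.75 in B9. B9Smad and SN161 were 0.05 apart there, so this separation rests on a small gap. Pkp2, a plakophilin typical of simple epithelia and heart, was lower, at 5.02 to 5.60 in the PDV-like lines and 8.31 in SN161, 8.31 in PDVC57, 8.64 in E4 and 7.60 in B9.

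The remaining desmosome genes did not separate the groups, and 9 of 11 that passed the filter had a positive difference, with a median of 0.85. Dsc2 was at 8.71 to 9.39 in PDV, B9ras and MSCP1 but at 6.68 in B9Smad, within the range of the less basal lines (4.11 to 6.80). Dsp, the plaque protein desmoplakin, was at 11.85 to 13.31 against 10.40, 10.66 and 10.65 in SN161, PDVC57 and E4, with B9 at 11.98. Jup, Pkp1 and Perp followed the same order with B9 inside or above the PDV-like range, and Pkp3 was highest in B9, at 10.62. Without SN161 and E4 the list's median was 0.27, and without B9 and PDVC57 it was 1.48.

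Among hemidesmosome and basement membrane genes, 0 of 11 were counted in either direction and the median difference was 0.40. Col17a1, the transmembrane collagen of hemidesmosomes, was at 12.42 in PDV, 11.86 in B9ras, 10.88 in B9Smad and 12.59 in MSCP1, and at 3.60 in SN161, 10.71 in PDVC57, 3.69 in E4 and 13.40 in B9. Its difference of 4.09 rested on SN161 and E4, and without these lines it was -0.12. The integrin chains Itga6 and Itgb4 that bind laminin gave differences of 1.39 and 1.45, with B9 at 13.11 and 12.53, inside or above the PDV-like ranges of 12.88 to 13.78 and 11.11 to 12.44. Without SN161 and E4 the difference of Itgb4 was -0.17. Lama3, a laminin chain of the epidermal basement membrane, was at 13.67 in B9, 10.76 to 12.46 in the PDV-like lines, and 8.41 in E4.

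Of 21 epidermal transcription factors, 3 were counted higher and 2 lower, with a median difference of 0.26. Trp63, which encodes p63, the regulator of the basal state, was at 11.32 in PDV, 11.22 in B9ras, 10.62 in B9Smad and 11.53 in MSCP1, and at 4.36 in SN161, 9.004 in PDVC57, 4.19 in E4 and 9.82 in B9. B9 was thus 0.81 below the lowest PDV-like line for p63, although its Krt5 was not lower. Klf4, a factor of barrier formation, was at 10.58 to 11.51 against 8.42 to 9.87, and Pitx1 at 10.14 to 10.52 against 7.74 to 9.55. Counted lower were Grhl1, a Grainyhead-like regulator of desmosomal cadherins, at 3.87 to 4.61 against 5.41 to 6.79, and the epithelial factor Elf3, at 6.03 to 6.29 against 7.06 to 8.15. Grhl2 differed by 0.12. Sox2, a factor of squamous tumour growth, was at 9.32 to 9.98 in the PDV-like lines but at 10.20 in E4, and so was not counted.

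Several tight junction genes were lower in the PDV-like lines. Of 24 adherens and tight junction genes, 4 were counted lower and 0 higher, and the median difference was -0.80. Cldn4, a claudin that tightens the seal, was at 7.03 in PDV, 7.64 in B9ras, 4.72 in B9Smad and 6.51 in MSCP1, and at 12.67 in SN161, 12.38 in PDVC57, 10.69 in E4 and 13.14 in B9. All 4 less basal lines lay at least 3.05 above the highest PDV-like line, a fold of 53.7 between the means. Marveld2, which encodes tricellulin, was at 3.39 to 4.42 in the PDV-like lines, under the array median of 5.04 to 5.15, and at 7.89 in SN161, 7.73 in PDVC57, 6.92 in E4 and 7.89 in B9. Cgn, the junction plaque protein cingulin, was at 5.72 to 6.90 against 8.41 to 8.77, and Rab25, an epithelial recycling GTPase, at 6.21 to 8.27 against 8.44 to 10.29.

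The junction genes that make cells epithelial were present in both groups. Cdh1, E-cadherin, was at 11.49 in PDV, 10.94 in B9ras and 11.62 in MSCP1, against 10.58 to 11.78 in the less basal lines, and stood lower in B9Smad, at 8.49. Epcam was at 10.51 to 12.17 against 11.78 to 13.12. Cldn7 and Cldn3 were high in 3 of the 4 less basal lines only: Cldn7 was at 10.35 in SN161, 8.99 in E4 and 11.29 in B9 but at 4.14 in PDVC57, beside 4.05 to 4.31 in the PDV-like lines. The 7 spindle lines had Cdh1 at a mean of 3.43 and Epcam at 4.31, far below all 8.

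Squamous differentiation genes showed 1 of 33 counted higher, 0 lower and a median difference of 0.13. The counted gene, Krtdap, a secreted protein of differentiating keratinocytes, was at 12.72 in PDV, 12.31 in B9ras, 7.94 in B9Smad and 13.22 in MSCP1, and at 4.26 in SN161, 4.31 in PDVC57, 3.97 in E4 and 6.09 in B9. Its neighbour in function Dmkn, dermokine, was at 9.46 to 12.30 in the PDV-like lines and at 13.30 in B9, above all of them, and its difference of 3.48 became -0.03 without SN161 and E4. Sfn, the 14-3-3 protein of stratified epithelium, was at 10.37 to 10.87 and in B9 at 11.64. Ivl, involucrin of the cornified envelope, was at 10.70 in B9 and at 4.07 to 6.84 in the other 7. For 21 of the 33 genes B9 lay above all 4 PDV-like lines. Tgm1, the transglutaminase that crosslinks the envelope, was at 4.62 to 5.47 in the PDV-like lines and 4.86 in B9, but at 9.15 in SN161, 6.63 in PDVC57 and 8.65 in E4.

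The genes with the widest gaps were mostly outside these lists. The promoters of Ctsz, which had the widest gap of the genes higher in the PDV-like lines, and of Cldn4, which had the largest difference among the 12 widest gaps in the other direction, are shown so that a reader can set the sequence beside the values. Both are RefSeq sequences of GRCm38.p6 read 5′ to 3′ on the gene's strand, from 250 bases before to 50 after the annotated start, and the minus strand holds both genes. Capitals mark exact matches, on either strand, to the AP-1 motif TGANTCA, which reads the same on both strands with its middle base free, and to the Sp1 core GGGCGG, with overlapping matches joined. The Ctsz window is chr2:174438990-174439289 and the Cldn4 window is chr5:134946885-134947184.
Ctsz: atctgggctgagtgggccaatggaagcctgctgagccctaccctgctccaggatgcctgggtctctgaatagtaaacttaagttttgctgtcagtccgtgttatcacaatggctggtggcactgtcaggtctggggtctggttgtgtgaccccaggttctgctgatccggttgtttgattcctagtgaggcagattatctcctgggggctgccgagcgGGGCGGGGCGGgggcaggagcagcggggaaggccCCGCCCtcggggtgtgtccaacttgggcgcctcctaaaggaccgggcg
Cldn4: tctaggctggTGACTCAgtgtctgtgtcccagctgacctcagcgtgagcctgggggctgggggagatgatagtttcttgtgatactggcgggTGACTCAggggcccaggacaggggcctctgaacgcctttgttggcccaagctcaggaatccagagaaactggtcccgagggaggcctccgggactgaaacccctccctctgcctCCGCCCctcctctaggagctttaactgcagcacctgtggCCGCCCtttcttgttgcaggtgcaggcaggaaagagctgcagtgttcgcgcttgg

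Ctsz held 3 Sp1 core matches and 0 AP-1 matches, and Cldn4 held 2 AP-1 and 2 Sp1 core matches. Of all 32851 promoters in the RefSeq table, 7.81% held an AP-1 match and 35.7% an Sp1 core match. For genes that passed the filter the shares were 5.61% and 61.2%, for genes counted higher 6.39% and 58.6%, and for genes counted lower 8.97% and 60.0%. A match describes letters in the window and not a bound site.

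Ctsz, the lysosomal cathepsin Z, was at 11.20 in PDV, 11.98 in B9ras, 11.21 in B9Smad and 11.25 in MSCP1, and at 3.64 in SN161, 3.70 in PDVC57, 4.06 in E4 and 4.43 in B9. The gap between the groups was 6.77 and the means were 175-fold apart, against values in the less basal lines that lie under the array median, where RMA compresses folds. Ctsz was not uniform outside the 8 lines, with 3.37 in C5N, 10.36 in NK, and 3.25 to 11.98 over the spindle lines. Ptn, the growth factor pleiotrophin, was at 10.18, 10.16, 10.21 and 10.25 in PDV, B9ras, B9Smad and MSCP1, against 3.49 in SN161, 3.81 in PDVC57, 3.71 in E4 and 4.25 in B9. The spread of the 4 PDV-like lines was 0.04 (SD, n = 4), and the 2 keratinocyte lines and P6 were at 10.13 to 11.49, on the side of the PDV-like lines. The 3 probe sets of Ptn gave differences from 0.25 to 6.39, and the groups did not overlap for 2 of them.

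Among the 12 genes with the widest gaps in this direction, Fstl1, a follistatin-like secreted protein, was at 9.34 to 10.54 in the PDV-like lines and at 5.51 in SN161, 5.73 in PDVC57, 3.56 in E4 and 3.56 in B9. The keratinocyte lines and P6 had Fstl1 at 3.57 to 3.75, so for this gene they lay with B9 and E4. Thbs2, thrombospondin 2, was at 10.996 to 11.998 against 3.78 in SN161, 8.39 in PDVC57, 4.65 in E4 and 8.04 in B9. Gas6, the ligand of the Axl receptor family, was at 9.28 to 10.14 against 4.10 to 6.76.

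Cd34, a surface sialomucin known from hair follicle bulge cells, was at 9.62 in PDV, 10.57 in B9ras, 11.16 in B9Smad and 9.28 in MSCP1, and at 3.59 in SN161, 4.73 in PDVC57, 6.44 in E4 and 3.91 in B9. In C5N, NK and P6 it was at 3.58, 3.73 and 3.76, so it was not shared with the keratinocyte lines. Cd34 was at 10.04 in B9rassmad, inside the range of the PDV-like lines, and ran from 3.39 to 12.83 over the 7 spindle lines. Dcstamp, a transmembrane protein of cell fusion in osteoclasts, was at 8.20 to 9.50 against 4.21 to 4.96. C5N, NK and P6 had Dcstamp at 4.27 to 4.41, and the spindle mean was 4.42, but B9rassmad was at 8.60, inside the range of the PDV-like lines. The guidance protein Flrt2 (11.87 to 12.50 against 5.21 to 9.23), the potassium channel Kcnq5 (6.21 to 7.84 against 3.33 to 3.61), the ciliary protein Evc2 (7.24 to 8.49 against 4.73 to 5.04) and Pi15 (7.57 to 8.27 against 4.65 to 5.38) completed the 12, together with Dsc3.

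Among the 12 widest gaps in the other direction, Gdpd3, a glycerophosphodiesterase, was at 4.89 in PDV, 5.14 in B9ras, 4.59 in B9Smad and 4.75 in MSCP1, and at 10.11 in SN161, 9.21 in PDVC57, 9.05 in E4 and 8.94 in B9. Both peptidylarginine deiminases Padi4 (3.66 to 4.07 against 7.55 to 9.45) and Padi3 (3.74 to 4.36 against 6.57 to 8.88), enzymes that turn arginine into citrulline, were under the array median in all 4 PDV-like lines. Hspb8, a small heat shock protein, was at 3.997 to 5.22 against 8.39 to 9.91. C5N, NK and P6 had Hspb8 at 10.17, 10.04 and 9.24, so for this gene the PDV-like lines stood apart from the keratinocyte lines as well.

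Msln, the surface protein mesothelin, was at 7.01 in PDV, 8.39 in B9ras, 6.37 in B9Smad and 5.18 in MSCP1, and at 12.28 in SN161, 11.50 in PDVC57, 11.24 in E4 and 11.81 in B9. Afp, alpha-fetoprotein, was at 3.07 to 3.63 against 9.87, 7.33, 5.93 and 8.72 in SN161, PDVC57, E4 and B9. The 5 probe sets of Afp gave differences from -4.60 to -0.04, and with their mean the difference was -1.75. Both were under the array median in the keratinocyte lines, with Msln at 4.02 and 4.26 and Afp at 3.55 and 3.16 in C5N and NK. The tetraspanin Cd82, known as a suppressor of metastasis, was at 4.74 to 4.97 against 7.67 to 10.22. Its 2 probe sets gave differences of -3.86 and 0.12. Ccbe1, a secreted protein of lymphatic growth, was at 4.24 to 5.99 against 8.995 to 11.05. The others were Rhpn2 (3.23 to 4.38 against 6.74 to 8.97) and Mab21l4 (3.36 to 3.77 against 6.14 to 7.07).

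**Figure D3:**
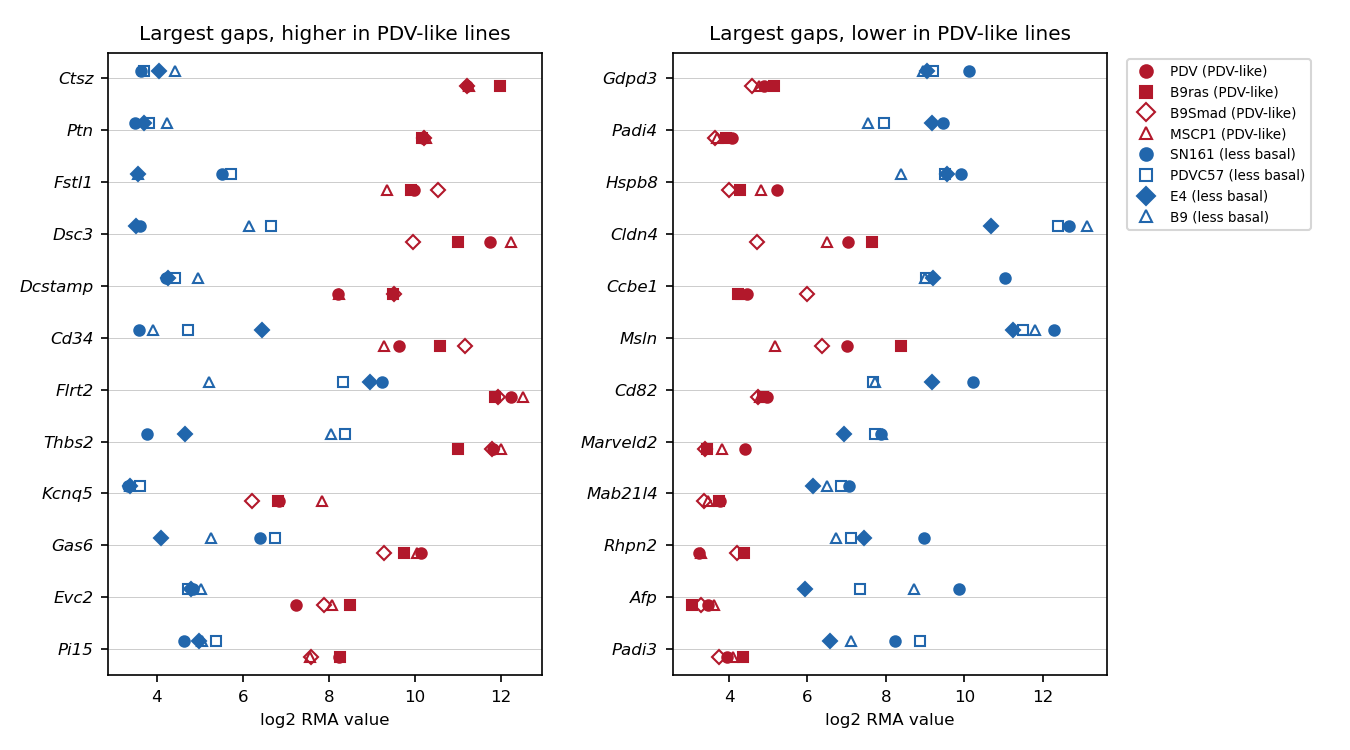
Log2 RMA values of the 12 genes with the widest gap between the groups in each direction, in the 4 PDV-like lines (red) and the 4 less basal lines (blue); each symbol is 1 line. The groups do not overlap for any gene shown, by the rule that chose them, and the gap is widest for Ctsz, at 6.77.

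Growth and patterning signals were mixed. Of 11 Notch genes 3 were counted higher and 0 lower, with a median difference of 0.09. The receptor Notch1 was at 9.99 in PDV, 10.08 in B9ras, 8.55 in B9Smad and 11.06 in MSCP1, and at 6.73 in SN161, 7.59 in PDVC57, 7.18 in E4 and 8.02 in B9. The ligands Jag2 (9.69 to 10.81 against 8.68 to 9.58) and Dll1 (8.89 to 9.35 against 5.64 to 8.77) were higher too, while the target Hes1 overlapped, at 8.62 to 9.44 against 7.57 to 9.03. For Dll1 the gap to B9 was small, since B9 was at 8.77 and B9Smad at 8.89.

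Of 19 Wnt genes, 1 was counted higher and 2 lower, and the median difference was -0.04. Wnt5a, a ligand of the pathway that does not use beta-catenin, was at 6.88 in PDV, 7.46 in B9ras, 7.48 in B9Smad and 6.82 in MSCP1, against 3.86 to 5.71 in the less basal lines. Wnt10a was at 5.86 to 6.27 against 8.37 to 9.22, and Wnt7b at 8.39 to 9.18 against 9.27 to 11.04. C5N, NK and P6 had Wnt10a at 10.25 to 10.74, on the side of the less basal lines. Wnt4 was high in the PDV-like lines (9.83 to 11.50) and in B9 (10.32), and lower in PDVC57 (8.24), SN161 (5.83) and E4 (5.80).

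Of 19 TGF-beta family genes, 1 was counted higher and 1 lower, with a median difference of 0.50. Bmp2, a bone morphogenetic ligand, was at 8.16 to 9.32 against 4.31 in SN161, 6.04 in PDVC57, 4.35 in E4 and 6.48 in B9. Inhba, the activin A subunit, was lower, at 7.42 to 8.34 against 9.19 to 10.25. Id1, a target of bone morphogenetic signals, was at 10.45 to 10.73 in the PDV-like lines and 10.85 in B9, and at 8.95 to 9.03 in the other 3. EGF family ligands and receptors had 0 of 10 counted and a median of -0.24.

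Of 16 interleukin, alarmin and chemokine genes, 3 were counted lower and 0 higher, with a median difference of -0.53. Il24, an interleukin of the IL-10 family, was at 7.62 in PDV, 7.97 in B9ras, 5.19 in B9Smad and 6.43 in MSCP1, and at 10.40 in SN161, 9.96 in PDVC57, 8.36 in E4 and 11.22 in B9. Ptgs2, the inducible cyclooxygenase, was at 10.99 to 11.84 against 11.88 to 13.27, a gap of 0.04 at E4. Csf2, the growth factor GM-CSF, was counted through a difference of -2.26 that rests on SN161, at 11.78, while the other 3 were at 5.45 to 5.87 and the PDV-like lines at 4.70 to 5.06. Without SN161 the difference was -0.73. Interferon response genes had 0 of 18 counted and a median of -0.42, and SN161 lay above all PDV-like lines in 15 of them.

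Extracellular proteolysis differed at 4 of 14 genes, 2 in each direction. Plau, the urokinase, was at 6.08 in PDV, 5.60 in B9ras, 4.47 in B9Smad and 5.23 in MSCP1, and at 9.74 in SN161, 7.41 in PDVC57, 6.88 in E4 and 10.48 in B9. Plat, the tissue plasminogen activator, was at 4.57 to 5.23 against 5.93 to 9.16. The 2 probe sets of Plau gave differences of -3.28 and -2.33, but those of Plat gave -2.94 and 0.006. The lower value of Plat therefore rests on the probe set kept. The serpin family member Serpinb5, maspin, and the inhibitor Timp3 were higher, at 10.77 to 11.001 against 8.56 to 10.72 and at 8.31 to 10.24 against 4.33 to 7.54. B9 lay 0.05 below the lowest PDV-like line for Serpinb5.

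Of 13 hair follicle stem and tumour-initiating cell genes, 1 was counted higher, Cd34, and 1 lower, with a median of 0.58. The lower gene was Lgr6, a receptor of follicle and epidermal stem cells, at 4.28 to 4.44 in the PDV-like lines and at 8.91 in SN161, 6.20 in PDVC57, 9.22 in E4 and 9.73 in B9. Of 19 mitotic and replication genes 0 were counted, with a median of 0.32. A list of 19 is too short to tell this from the 4.22% of all genes. SN161 lay below all PDV-like lines for 18 of the 19.

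Few mesenchymal genes were counted, and lists of 10 and 20 are too short to tell this from the 4.22% of all genes. Of 10 EMT transcription factors 1 was counted higher, Snai2, at 11.20 to 11.995 against 8.22 to 11.19, with the lowest PDV-like line 0.01 above B9. Snai2 was also at 12.26 and 11.91 in C5N and NK. Of 20 mesenchymal and matrix genes 1 was counted lower, the fibronectin receptor chain Itga5, at 6.12 to 6.95 against 7.15 to 8.50. In mean, 4 of the 20 were at least 2-fold higher and 5 at least 2-fold lower, with overlap allowed. Over all 12641 genes these numbers were 486 and 631. Vim, vimentin, was at 12.71 to 13.91 in the PDV-like lines and 11.45 to 13.01 in SN161, PDVC57 and E4, but at 5.14 in B9, and the 7 spindle lines had a mean of 14.06. Sparc, a matrix glycoprotein, was at 11.58 to 12.38 in the PDV-like lines and at 3.88 in B9.

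**Figure D4:**
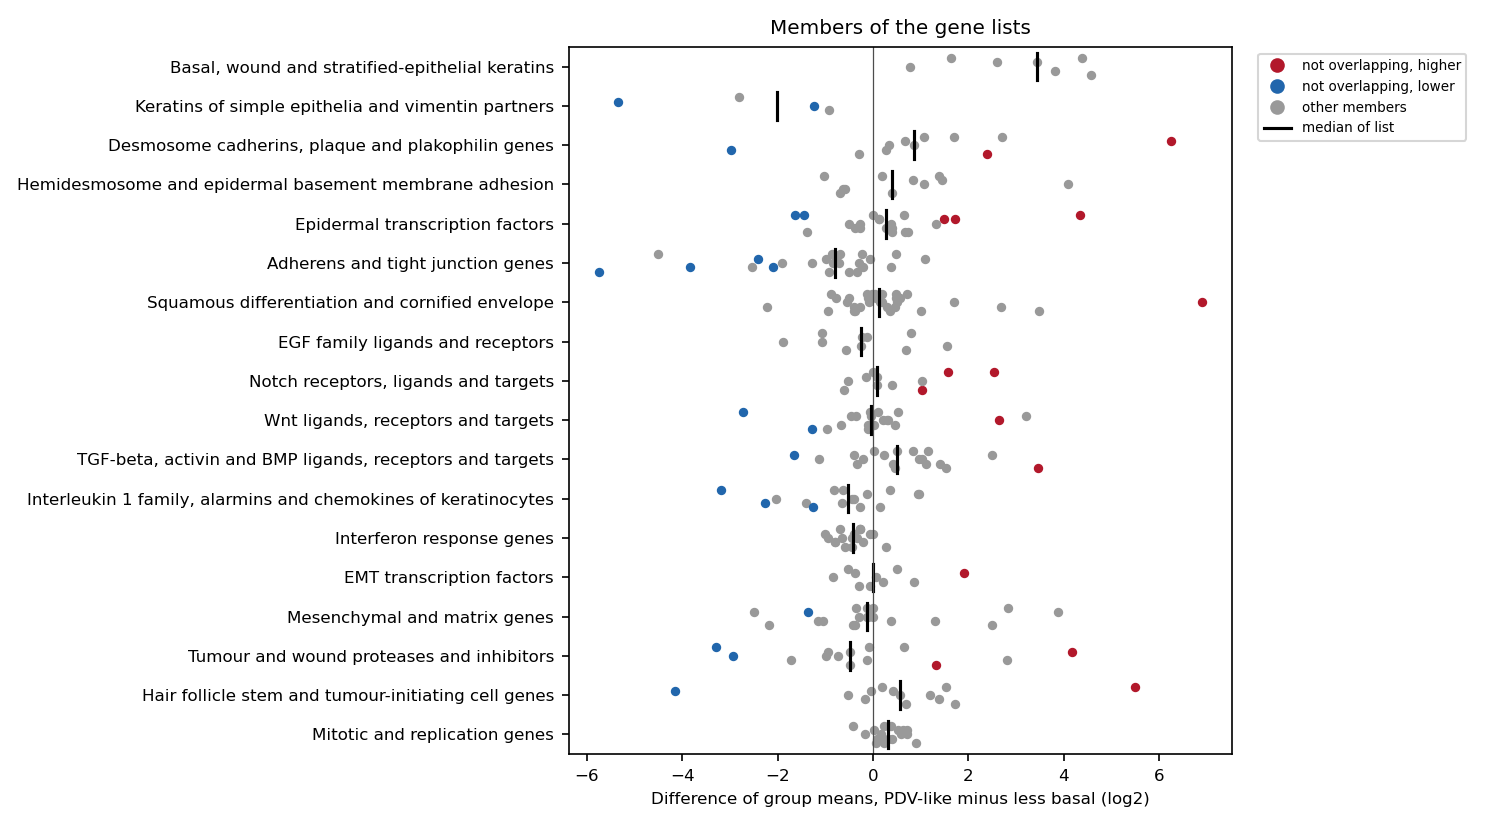
Difference of the group means (PDV-like minus less basal, log2) for each member of 18 gene lists; each point is 1 gene, coloured where the 2 groups of lines do not overlap and the means are at least 2-fold apart, and the black bar is the median of the list. Basal keratins have the highest median, 3.44, with 0 of 7 members coloured, and simple keratins the lowest, -2.02.

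The PDV-like lines were not interchangeable. B9Smad lay at least 2 log2 units above the other 3 for 41 genes and below them for 38, against 8 and 0 for PDV, 8 and 4 for B9ras, and 1 and 0 for MSCP1. The chemokine Ccl2 was at 10.97 in B9Smad and at 5.22 to 5.94 in the other 3. Pcolce, a collagen processing enhancer, was at 10.76 in B9Smad and at 4.64 to 5.97 in the others, beside a spindle mean of 13.17 and 13.05 in B9rassmad. In the other direction, the tetraspanin Cd81 was at 5.60 in B9Smad and at 11.25 to 11.94 in PDV, B9ras and MSCP1. Fxyd3, an epithelial regulator of the sodium pump, was at 5.999 against 9.92 to 10.27. B9Smad had the lowest value of the PDV-like lines for Krt5, Krt14, Dsc3, Dsg2, Col17a1, Trp63, Notch1, Krtdap and Cdh1. Of 463 genes at least 4-fold apart between PDV and B9rassmad, B9Smad was nearer to PDV for 285 and nearer to B9rassmad for 178.

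The single genes that set PDV apart were led by Tmem51, at 8.35 against 4.33 to 5.14 in the other 3, and the collagen chaperone Serpinh1, at 7.94 against 4.66 to 5.35. In B9ras the fibroblast growth factor homologue Fgf13 was at 3.52, against 7.39 to 8.57 in the other 3. MSCP1 had 1 such gene, Slc16a3, a lactate transporter, at 8.85 against 5.09 to 6.26.

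The less basal lines differed among themselves more than from the PDV-like lines in places. B9 lay at least 2 log2 units above the other 3 for 114 genes and below for 100, led by Krt16 and Krt6b above and by Lhfp, Sparc and Lgals1 below. Lgals1, galectin 1, was at 7.29 in B9 and at 13.68 to 14.52 in SN161, PDVC57 and E4; in the PDV-like lines it was at 8.36 in PDV, 13.34 in B9ras, 12.47 in B9Smad and 7.04 in MSCP1. SN161 lay above the other 3 for 73 genes and below for 6, led by the siderophore-binding Lcn2, at 11.27 against 3.28 to 3.57, and Csf2. PDVC57 lay above the other 3 for 35 genes and below for 40. The genes that led in PDVC57, such as Ptprz1 at 9.58 and Sostdc1 at 8.38, were high in the PDV-like lines too, at 10.23 to 11.62 and 9.91 to 11.60. E4 lay above for 18 and below for 29, with the membrane progesterone receptor component Pgrmc1 at 6.97 against 11.38 to 12.43.

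PDVC57 lay between the groups over the separating genes as a whole. The mean of the 248 genes counted higher was 8.55 to 8.98 in the PDV-like lines and 7.23 in PDVC57, against 6.34 to 6.57 in SN161, E4 and B9. The mean of the 286 genes counted lower was 6.32 to 6.59 in the PDV-like lines and 7.87 in PDVC57, against 8.18 to 8.90 in the other 3. The other 18 lines lay between these extremes: C5N was at 7.50 and 7.30, NK at 7.76 and 6.95, P6 at 7.81 and 7.58, and B9rassmad at 7.40 and 7.24 for the higher and lower genes. The genes were chosen for the distance between the 2 groups of 4, which fixes the order of the groups and moves them toward the ends. The place of the other 18 lines between them is therefore partly built in.

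**Figure D5:**
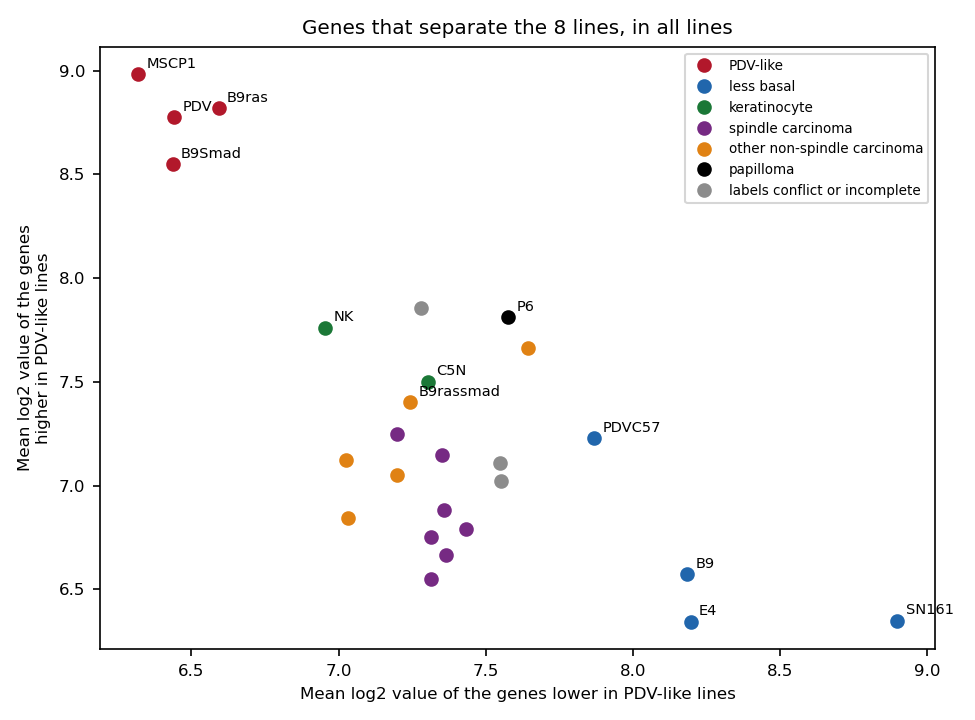
Mean log2 RMA value of the 248 genes counted higher (vertical axis) against that of the 286 genes counted lower (horizontal axis) in each of the 26 lines; each point is 1 line, coloured by group. The 4 PDV-like lines lie at 8.55 to 8.98 on the vertical axis, PDVC57 at 7.23 and the other 3 less basal lines at 6.34 to 6.57.

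The lines outside the 8 allowed 1 test. The keratinocyte lines (n = 2) were compared with the spindle lines (n = 7) with limma and Benjamini-Hochberg adjustment, which called 639 genes, or 5.05%, higher in keratinocyte lines and 574, or 4.54%, lower, together 9.6% of 12641. Of the 248 genes counted higher in the PDV-like lines, 57 (23.0%) were called higher in the keratinocyte lines and 7 (2.82%) lower, with a median difference of 0.50. Of the 286 genes counted lower, 32 (11.2%) were called higher and 30 (10.5%) lower, with a median of -0.34. The median over all 12641 genes was -0.04. Without C5N 347 genes in all were called lower and without NK 311, and without NK 19 of the 286 genes were called lower. The genes had been chosen for large differences among other lines, so shares above the background in either direction are a description. Some spindle lines lay close together, with 21 genes at least 4-fold apart between A5 and H11 and 118 between D3DP and MSN2. The 7 spindle lines may thus be fewer than 7 independent samples, and the p-values would then be too small.

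Single genes went both ways in that test. Dsc3 was higher in keratinocyte lines by 7.63 (SE 0.23, limma adjusted p = 8.6e-08) and Trp63 by 5.80 (SE 0.84, limma adjusted p = 0.00282), and for both genes C5N and NK were above all 7 spindle lines. Fstl1, higher in the PDV-like lines, was lower in the keratinocyte lines, with a difference of -6.07 (SE 1.01, limma adjusted p = 0.00598), with C5N and NK at 3.72 and 3.75 and the spindle lines at 6.84 to 11.21. Cldn4 and Marveld2, lower in the PDV-like lines, were higher in the keratinocyte lines by 5.64 (SE 0.54, limma adjusted p = 0.000222) and 5.03 (SE 0.21, limma adjusted p = 1.02e-06), again without overlap. Msln was lower in them, with a difference of -5.25 (SE 0.88, limma adjusted p = 0.00617). For both junction genes the PDV-like lines lay nearer to the spindle lines, with means of 6.47 and 3.77 against spindle means of 4.83 and 3.39, and the less basal lines nearer to the keratinocyte lines, whose means were 10.47 and 8.42.

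By list, 7 of 7 basal keratins and 6 of 11 desmosome genes were called higher in the keratinocyte lines. So were 13 of 21 epidermal transcription factors and 17 of 24 junction genes, and 0 of each list were called lower. Over all genes the shares were 5.05% higher and 4.54% lower. Of 11 hemidesmosome genes 4 were called higher and 1 lower, and of 11 Notch genes 5 and 1. Of 10 EMT transcription factors 0 were called higher and 5 lower, and of 20 mesenchymal and matrix genes 1 and 6. None of the 4 simple keratins was called, and at an unadjusted p under 0.05 the number was also 0.

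None of the 8 fibroblast, 3 melanocyte, 3 endothelial and 4 leukocyte markers that passed the filter was counted. These lists are too short to tell this from the 4.22% of all genes. The mean over all 10 fibroblast markers ran from 4.18 to 4.75 in the PDV-like lines and from 4.18 to 4.83 in the others, and the defining collagen Col1a1 was at 3.57 to 4.08 in all 8. Col3a1 was at 7.02 in B9Smad and 7.43 in E4 and at 4.43 to 4.83 in the other 6. Single fibroblast markers were higher than these collagens in some lines. The highest was at 7.70 in B9ras, 7.39 in MSCP1, 7.39 in SN161 and 7.81 in B9, but at 5.25 in PDV and 5.06 in PDVC57. Tyr and Ptprc, the defining markers of melanocytes and leukocytes, stayed under the array median in all 8 lines, at most at 3.67 and 4.98. The leukocyte marker Cd68 was at 9.995 in SN161 and at most 7.11 in the other 7. The highest of the 4 leukocyte markers that passed the filter was at 10.11 in SN161 and 8.59 in E4. In the other 6 lines it ran from 7.11 in B9 to 7.84 in B9Smad. The mean of 8 keratinocyte markers was 11.65 to 13.05 in the PDV-like lines and 8.76 to 12.47 in the less basal lines.

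At the edge of the counting rule, Snai2 was just inside for higher genes, as was the ciliary gene Rpgrip1, at 11.37 to 11.79 in the PDV-like lines and 11.37 in PDVC57 but 5.66 to 7.51 in SN161, E4 and B9. Galnt3, an enzyme that starts O-linked glycosylation, was just inside for lower genes, at 7.91 to 9.21 against 9.21 to 10.41. Krt5, Krt14 and Col17a1 fell outside because of B9, and Dsc2 because of B9Smad and SN161, which were at 6.68 and 6.80.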

How the data were processed

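Each of the 26 lines was hybridised to 1 Affymetrix M430 2.0 array. The deposited table holds log2 values that the authors made with RMA, per the submitters' processing notes, for 45037 probe sets, between 2.28 and 14.92. The version is not given in the sources used here. RMA gives all arrays one distribution, which hides shifts in total RNA, and it compresses folds near background. The number of arrays limits the precision.

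Symbols were single for 34945 probe sets, several for 932 and lacking for 9160. Of a gene's probe sets the one with the highest average over the arrays was kept, giving 18193 genes, of which 12641 lay above the array's median on at least 2 arrays. A gene was counted where the groups of 4 lines did not overlap and their means differed by at least 1 log2 unit. The members and the 24 gene lists were chosen with earlier results of these data known. Named are the 12 genes with the widest gap in each direction, list members, and for each line up to 5 genes at least 2 log2 units from the nearest of the other 3 lines of its group. Rpgrip1 and Galnt3 were named after their values were seen. Of 111 named genes 63 had several probe sets, and for 10 of these (Ccbe1, Cd82, Col1a1, Col3a1, Grhl2, Lama3, Pkp3, Plat, Sparc and Xist) the probe sets differed in the sign of the difference. Where the sign was shared the size could still differ, as for Hspb8 (-4.77 to -0.83) and Pkp2 (-2.97 to -0.20). The same held for Wnt5a (0.22 to 3.15) and Inhba (-1.66 to -0.04). Sizes given for a gene are of the probe set kept.

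Keratinocyte and spindle lines were compared by moderated linear models in limma 3.58.1 under R 4.3.3, and a Benjamini-Hochberg adjusted p below 0.05 made a call. These p-values take the lines as independent and measure the spread between lines, which may be related. Both procedures were tested on simulated data with independent lines, large differences and a smaller spread than many genes showed here. This checks that the procedures run as described and not how they behave with related or widely spread lines. Alternatives covered the probe set rule, the filter, centring and the lines included. Promoters are from RefSeq (GRCm38.p6).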

Additional observations from a re-analysis of the deposited data

Results flagged for a closer look

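In each group of 4 lines the highest or the lowest line was compared with the nearest of the others, over 222 groups of values (111 genes in 2 groups), and in 26 of them the gap passed Dixon's test. Chance gives about 1 in 20 groups only where lines are independent and neither lines nor genes are chosen on their values. Some of the genes were named because 1 line lay far from the other 3, so more such gaps are built in. The lines were also chosen on these arrays. PDV, B9ras and MSCP1 had 19 to 66 genes at least 4-fold apart, and B9Smad had 148 to 205 against them. The 26 gaps are therefore a description and not a test. The cause was not tested for any of them.

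Among the PDV-like lines B9Smad stood apart for 8 genes. It was high for Ccbe1 at 5.99, Ccl2 at 10.97, Col3a1 at 7.02 and Lcn2 at 8.05. It was low for Cd81 at 5.60, Fxyd3 at 5.999, Krt6a at 13.17 and Lhfp at 10.04. B9ras stood apart for Ctsz, at 11.98.

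Among the less basal lines B9 stood apart most often. It was high for Dsp at 11.98, Eif2s3y at 8.80, Id1 at 10.85, Krt15 at 6.80, Krt16 at 12.31, Krt6b at 12.23 and Krtdap at 6.09. It was low for Lgals1 at 7.29 and Lhfp at 3.86. SN161 was high for Ccbe1 at 11.05, Csf2 at 11.78 and Lcn2 at 11.27. E4 was high for Col3a1 at 7.43 and low for Marveld2 at 6.92. PDVC57 was high for Fgf13 at 8.64, Ptprz1 at 9.58 and Sostdc1 at 8.38. PDV was at 8.57, 10.70 and 11.42 for these genes.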

How the results depend on the processing

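The groups were chosen on these arrays and each holds 4 lines, some of which may be related, so the counts have no test and depend on the lines taken. The counts of 248 genes higher and 286 lower became 407 and 546 with PDV alone in place of the 4 PDV-like lines, and 640 and 1012 without B9 and PDVC57. Both alternatives were chosen after seeing the data. The rule asks that no line of 1 group overlaps the other group, which is easier to meet with fewer lines and harder with more. Whether anything else adds to these changes was not tested. Of the 248 and 286 genes, 223 and 260 were again counted with PDV alone. Adding B9rassmad to the less basal lines gave 173 and 183. Leaving out 1 line at a time gave 248 to 371 genes higher and 255 to 542 lower, with the most without PDVC57 (371 and 542) and 362 and 431 without B9. Without MSCP1 and B9Smad they were 356 and 374. With each array centred on its median, the share of higher genes among those counted was 49.8%, against 46.4% as reported. With the probe set of largest SD for each gene it was 52.4%, from 331 genes higher and 301 lower, so which direction held more genes depended on this choice.

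For keratinocyte against spindle lines, calls ran from 480 to 639 higher and from 311 to 632 lower when 1 line was left out, with 347 lower without C5N and 311 without NK. A keratinocyte group of 1 line is then assumed to vary like the spindle lines. The probe sets for the Spretus label numbered 7 in place of 2 without MSN2, and MSCP1 was low in 1 of the 7. SN161, labelled a Spretus/NIH cross, was also low in 1 of 7. The other Spretus/CBA lines, each held out in turn, were low in 7 of 16 (MSC7A) to 7 of 32 (MSC12). Their 7 are the probe sets low in all 5 of these lines, so that number is the same for each by construction. Probe sets for them were chosen on 4 lines, against 5 for MSCP1 and SN161, so the shares are not on the same scale. These numbers are too small to decide on the label of MSCP1.

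Of the 111 named genes 94 differed by at least 1 log2 unit, and 11 of these turned sign under an alternative; 0 of the 11 were among the genes counted. Without SN161 and E4 they were Col17a1 (-0.12), Dmkn (-0.03), Fxyd3 (-0.81), Itgb4 (-0.17), Krt6b (-0.60), Krt7 (0.55) and Pcolce (0.02). Without B9 they were Lhfp (-0.25) and Eif2s3y (0.06), and with PDV alone Serpinh1 (0.38) and Tmem51 (0.36). Lhfp also turned without B9 and PDVC57 (-0.20). Of 1104 gene values under alternatives other than leaving out 1 line, 82 moved by more than the spread between lines: 23 without B9 and PDVC57, 23 without SN161 and E4, 17 with the mean of probe sets, 9 with PDV alone, 9 with B9rassmad added and 1 with the probe set of largest SD. With the mean of probe sets Afp moved most, by 2.85. No paired analysis was possible because the replicate numbers only follow the order of deposition.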
